A study of Mus musculus with 6 samples.

Results

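Goblet cell genes were examined in villus epithelium of the duodenum from 3 double mutant and 3 wild-type mice, sequenced as 1 bulk RNA-seq library per mouse. The set was given by name and holds 9 genes, 6 of them products (*Muc2*, *Tff3*, *Fcgbp*, *Zg16*, *Agr2* and *Spink4*) and 3 of them transcription factors (*Atoh1*, *Spdef* and *Gfi1*). All 9 were found among the 20409 features of the count table by their Ensembl identifiers, and all 9 passed the filter on low counts. The double mutant mice, Smad4 knockout and beta-catenin GOF (gain of function), carried *Smad4* fl/fl, *Ctnnb* exon3 fl/wt, in which exon 3 of 1 β-catenin allele is floxed, and the Villin-CreERT2 transgene, so that recombination was driven in the whole intestinal epithelium, goblet cells included. They received tamoxifen at 0.05 g/kg on 4 days, and villi were collected 7 days after the first injection. The wild-type mice were littermates without tamoxifen, so the effects of the drug and of the alleles cannot be told apart, and which alleles they carried is not given in the sources used here. Each group held 1 male, mouse 1, and 2 females. The study states that the groups were matched for age as well as sex, without the ages themselves.

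Goblet cells are the mucus-producing secretory cells of the intestinal epithelium. In the crypt, cells that escape Notch signaling and its repressor Hes1 express *Atoh1*, which commits them to a secretory fate. *Gfi1* acts downstream of *Atoh1* and favors goblet and Paneth over enteroendocrine cells, and *Spdef* drives goblet cell maturation. Mature goblet cells migrate up the villus, where the gel-forming mucin Muc2 is secreted together with the proteins that crosslink, fold and accompany it.

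Libraries held between 19678507 and 26337318 counts, and 3 counts, the limit that a count of 0 allows, came to between 0.125 and 0.163 CPM (counts per 1000000 counts of the library, scaled by TMM factors in all values below; the limit covers counting error only). The knocked-out gene *Smad4* had 119.8, 180.1 and 144.5 CPM in wild-type mice 1, 2 and 3 and 26.05, 36.83 and 32.13 CPM in the double mutant mice. Summed markers of enterocytes, the main cells of the villus, were 71280, 64380 and 59930 CPM in the wild-type mice and 38170, 42130 and 40720 CPM in the double mutant mice, without overlap. Of 13 such markers 1 rose and 9 fell by the edgeR test described below (2 and 8 without wild-type mouse 1), where 19.7% of all genes tested rose and 17.0% fell (20.2% and 17.1%). The part of this difference in the goblet cell values was not tested. Markers of the B and plasma cell, mesenchymal and vascular, Brunner gland and pancreatic acinar lists summed to at most 4.93 CPM in any library, and myeloid markers to at most 11.7 CPM. Of these lists *Dcn*, *Lum*, *Tff2*, *Prss2* and *Cpa1* were not among the features of the count table. The library of wild-type mouse 1 stood apart. It was the deepest library, yet its summed level of the 9 goblet cell genes was 123 CPM, while wild-type mice 2 and 3 had 11630 and 11050 CPM and the double mutant mice 4667 to 5065 CPM. Its *Smad4* level lay nearer to the other wild-type mice than to the double mutant mice. Whether it holds the same part of the epithelium as the other wild-type libraries, or was mixed up, cannot be told from these files, and values over all 6 libraries hold only if its label is right. Counts of called genes, but not every value of a gene or ratio, are therefore given with all 6 libraries and without wild-type mouse 1. That library was singled out by the values of these same genes, so leaving it out is a description of how far 1 library sets the result.

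The positions of the genes are those of the mm9 annotation. *Muc2* (ENSMUSG00000025515; chromosome 7, 148876268 to 148940595), *Fcgbp* (ENSMUSG00000047730; chromosome 7, 28856255 to 28905881) and *Zg16* (ENSMUSG00000049350; chromosome 7, 134193670 to 134195491) share a chromosome. *Tff3* (ENSMUSG00000024029; 31262251 to 31266591) and *Spdef* (ENSMUSG00000024215; 27851297 to 27865896) lie on chromosome 17. *Agr2* (ENSMUSG00000020581) spans chromosome 12 from 36719494 to 36730674, *Spink4* (ENSMUSG00000028415) chromosome 4 from 40867085 to 40878428, *Atoh1* (ENSMUSG00000073043) chromosome 6 from 64679140 to 64681227 and *Gfi1* (ENSMUSG00000029275) chromosome 5 from 108145674 to 108155056. Exons of *Fcgbp* overlap those of *Gm10935* and exons of *Gfi1* those of the noncoding gene *A430072P03Rik*, both on the opposite strand. The strand setting of the counting is not given in the sources used here, but these partners had at most 11 and 5 counts in any library.

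Promoter windows of RefSeq (GRCm38.p6, 250 bases before to 50 after the transcription start) were held for 6 of the 9 genes, in 7 windows. *Tff3*, *Zg16* and *Spink4* had none. The windows were searched on both strands for CAGCTG and CAGATG, forms of the E-box that basic helix-loop-helix factors such as Atoh1 bind, for GGATGT, a core of Ets-type sites such as those of Spdef, and for AAATCA, which holds the core of Gfi1 sites. CAGCTG was present for *Muc2* and *Fcgbp*, CAGATG for none, GGATGT for *Muc2* and AAATCA for *Agr2*. Of all 32851 windows, 16.3% held CAGCTG, 17.2% CAGATG, 11.1% GGATGT and 14.0% AAATCA. The stretches around every match are shown 5′ to 3′ on the strand of the gene. A link between these letters and the levels of the genes was not tested. Capitals mark the matched letters, those of GGATGT being shown as their reverse complement. The matches are a description of the letters and do not show binding.
*Muc2*, E-box, chr7:141690201-141690260, plus strand: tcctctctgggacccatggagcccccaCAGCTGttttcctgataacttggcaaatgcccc
*Fcgbp*, E-box, chr7:28071001-28071060, plus strand: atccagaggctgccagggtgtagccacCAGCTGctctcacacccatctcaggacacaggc
*Muc2*, Ets-type core, chr7:141690103-141690162, plus strand: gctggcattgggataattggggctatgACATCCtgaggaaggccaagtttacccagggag
*Agr2*, Gfi1-type core, chr12:35992689-35992748, plus strand: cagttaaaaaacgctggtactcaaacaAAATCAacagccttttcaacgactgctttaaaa
The 2 E-box matches lie 106 bases (*Muc2*) and 202 bases (*Fcgbp*) before the transcription start.

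To compare the groups, each gene was first followed across the 6 libraries. The mucus components *Muc2*, *Fcgbp*, *Zg16* and *Tff3* were lower in every double mutant mouse than in wild-type mice 2 and 3, while *Agr2* and *Spink4* were higher in every double mutant mouse than in every wild-type mouse. All 3 transcription factors were lower in every double mutant mouse than in wild-type mice 2 and 3. In wild-type mouse 1, all 9 genes were lower than in any other library, by 5.28-fold (*Gfi1*) to 52.0-fold (*Atoh1*) against the lowest of the other 5. The value for *Atoh1* rests on 3 counts, and its exact 95% counting interval runs from 17.4-fold to 255-fold.

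**Figure D1:**
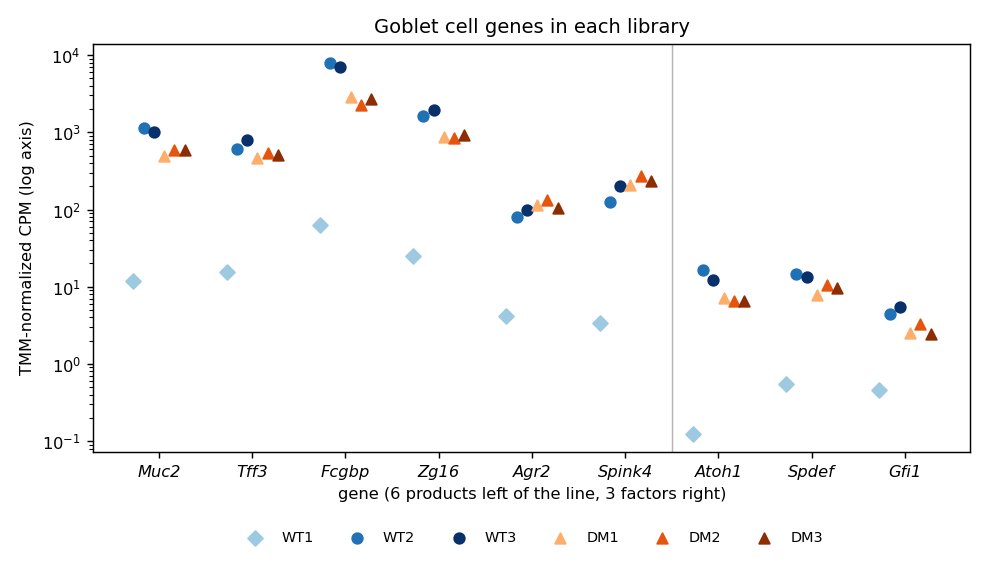
Normalized counts of the 9 goblet cell genes in each library, as TMM-normalized CPM on a log axis, with diamonds for wild-type mouse 1 (WT1), circles for wild-type mice 2 and 3 and triangles for the double mutant (DM) mice. Wild-type mouse 1 is the lowest library for every gene, and the triangles lie below the circles for 7 genes and above them for *Agr2* and *Spink4*.

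*Muc2*, the gel-forming mucin of intestinal mucus, had 11.75 CPM in wild-type mouse 1, 1139 CPM in wild-type mouse 2 and 1019 CPM in wild-type mouse 3. The double mutant mice had 500.5, 595.8 and 597.9 CPM, which lay between wild-type mouse 1 and the other wild-type mice. *Fcgbp*, which encodes an IgG Fc-binding protein that is a structural component of mucus, had 62.27, 8015 and 6929 CPM in the wild-type mice and 2895, 2268 and 2674 CPM in the double mutant mice. It was the most abundant member by counts, and its double mutant mean was 35.0% of the mean of wild-type mice 2 and 3, against 52.3% for *Muc2*. *Zg16*, a lectin that binds Gram-positive bacteria, had 25.08, 1633 and 1973 CPM in wild-type and 862.1, 836.2 and 925.7 CPM in double mutant mice. *Tff3*, a trefoil peptide of mucosal repair, had 15.62, 602.4 and 802.4 CPM in wild-type and 467.6, 543.3 and 501.1 CPM in double mutant mice. Its double mutant mean, 71.8% of that of wild-type mice 2 and 3, was the highest of these 4 products.

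*Agr2*, a protein disulfide isomerase of the endoplasmic reticulum needed to process Muc2, had 4.124, 80.08 and 98.11 CPM in the wild-type mice. In the double mutant mice it had 116.1, 130.9 and 104.8 CPM, all above the highest wild-type value. *Spink4*, a small secreted peptide of the Kazal inhibitor family, had 3.374, 125.3 and 200.3 CPM in wild-type and 206.8, 272.6 and 235.9 CPM in double mutant mice. The lowest double mutant mouse lay close to wild-type mouse 3 for both genes. These were the 2 members of 9 whose groups did not overlap over all 6 libraries, while 52.4% of all genes tested did not overlap, 28.1% being higher and 24.2% lower in the double mutant. Without wild-type mouse 1 none of the 9 overlapped, with 7 lower and 2 higher, where 62.2% of all genes did not overlap, 29.3% lower and 32.9% higher.

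The transcription factors were far less abundant. *Atoh1* had 0.125 CPM in wild-type mouse 1, the level of those 3 counts, and 16.43 and 12.38 CPM in wild-type mice 2 and 3. Its double mutant values of 7.089, 6.586 and 6.503 CPM were the tightest of the 9 genes, with a coefficient of variation of 4.71%. They rest on 151, 142 and 137 counts, where counting error alone can give a spread of this size. *Spdef* had 0.5415, 14.58 and 13.29 CPM in wild-type and 7.746, 10.67 and 9.588 CPM in double mutant mice. *Gfi1* had 0.4582, 4.461 and 5.408 CPM in wild-type and 2.535, 3.339 and 2.421 CPM in double mutant mice. For each of the 3 factors, the double mutant values lay between wild-type mouse 1 and the other wild-type mice. For *Gfi1* the margin to wild-type mouse 2 was small, with 72 counts in double mutant mouse 2 and 82 in that wild-type mouse. The double mutant mice themselves were spread 1.38-fold for *Gfi1* and for *Spdef*, highest over lowest. Double mutant mouse 1, the male of its group, was the lowest of its group for *Muc2*, *Tff3*, *Spink4* and *Spdef* and the highest for *Fcgbp* and *Atoh1*, and had none of the low values of the male wild-type mouse 1.

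Over all 6 libraries, edgeR's quasi-likelihood test with Benjamini-Hochberg adjustment called 0 of the 9 genes at an adjusted p under 0.05, where 36.8% of the 13346 genes tested were called, 19.7% higher and 17.0% lower. None of the 9 had an unadjusted p under 0.05 (0 genes), and DESeq2 and limma-voom also called 0. The log2 fold change was -0.36 for *Muc2* (95% interval -4.18 to 3.46, adjusted p = 0.870) and -0.94 for *Fcgbp* (-4.96 to 3.08, adjusted p = 0.671), both from edgeR. *Spink4* had the largest positive difference, 1.12 on the log2 scale (-2.32 to 4.56, adjusted p = 0.550, edgeR). The smallest adjusted p of the 9, that of *Agr2*, was 0.542. The intervals of all 9 genes reach past a 2-fold change in either direction, so the 6 libraries do not set a direction for any of them.

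Without wild-type mouse 1, 7 of the 9 genes fell in double mutant villi by the same edgeR test and 0 rose, where 37.4% of 13769 genes tested were called, 20.2% higher and 17.1% lower. *Fcgbp* fell most, with a log2 fold change of -1.52 (SE 0.145, adjusted p = 6.96e-05), followed by *Atoh1* with -1.10 (SE 0.186, adjusted p = 0.00155). For *Zg16* it was -1.04 (SE 0.131, adjusted p = 0.000312) and for *Muc2* -0.93 (SE 0.132, adjusted p = 0.000572). These 4 calls held in each of the 5 fits that left out a further library and under each other test, scaling, filter or covariate tried, though none reached a log2 fold change of 2. *Gfi1* (-0.83, adjusted p = 0.0317), *Spdef* (-0.58, adjusted p = 0.0337) and *Tff3* (-0.48, adjusted p = 0.0282) also passed. These 3 calls were less stable. Without double mutant mouse 1 (edgeR adjusted p = 0.0621, 0.0656 and 0.0535) or mouse 3 (0.0915, 0.0734 and 0.0811) all 3 were lost, which left 4 of the 9 genes called. All 3 were also lost without wild-type mouse 3 (0.186, 0.0960 and 0.303), and *Gfi1* and *Spdef* without wild-type mouse 2 (0.0732 and 0.194), as well as all 3 when scaled by library size alone and with sex as a covariate (0.0659, 0.0705 and 0.0509). *Agr2* (0.40, 95% interval 0.07 to 0.72, adjusted p = 0.0572) and *Spink4* (0.55, 0.09 to 1.01, adjusted p = 0.0606) did not pass. Both intervals lay above 0. *Spink4* was called higher by DESeq2 (adjusted p = 0.0493), by limma-voom (adjusted p = 0.0498) and by edgeR without wild-type mouse 3 as well (adjusted p = 0.0116) or without a filter on low counts (adjusted p = 0.0429). It was not called without wild-type mouse 2 (0.25, adjusted p = 0.411) or without double mutant mouse 1 (adjusted p = 0.0568), mouse 2 (0.162) or mouse 3 (0.103). With a further library left out its log2 fold change ran from 0.25 to 0.93, the highest without wild-type mouse 3, and that of *Agr2* from 0.26 (without wild-type mouse 2, adjusted p = 0.380) to 0.55 (without wild-type mouse 3, adjusted p = 0.0688). *Agr2* was also called higher without that filter (adjusted p = 0.0411), which brought the calls to 9 of 9, against 8 of 9 by DESeq2 and by limma-voom. Scaled by library size alone, edgeR called both genes higher (adjusted p = 0.0137 and 0.0239) and 4 of the 9 lower, a scaling that moved the median log2 fold change of all genes from 0.03 to 0.21. Bulk counts cannot tell fewer goblet cells from less RNA per goblet cell.

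**Figure D2:**
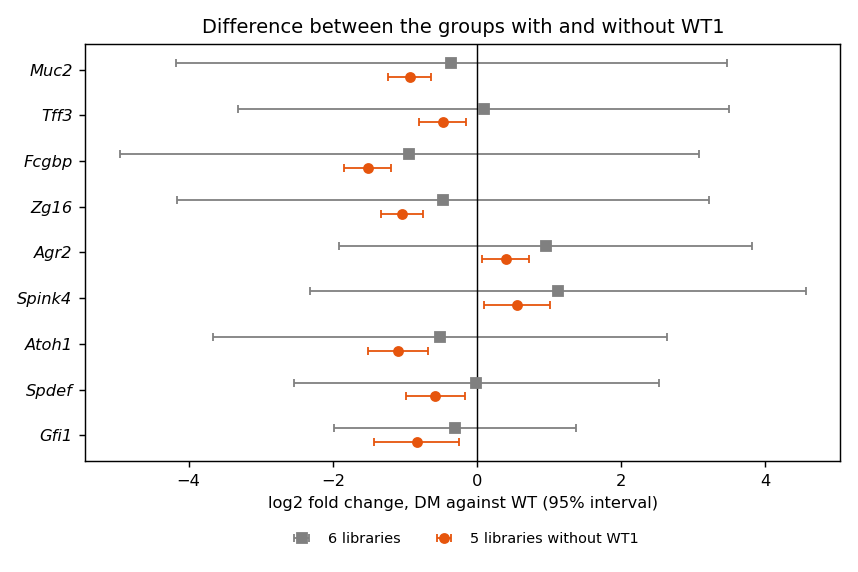
Log2 fold change of double mutant (DM) against wild-type (WT) villi for each gene, with 95% intervals from edgeR, over all 6 libraries (grey squares) and without wild-type mouse 1 (orange circles). With all libraries every interval crosses 0, and without wild-type mouse 1 they narrow, lying below 0 for 7 genes and above 0 for *Agr2* and *Spink4*.

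Since all 6 are known chiefly as goblet cell products, each was also expressed relative to *Muc2* within its own library. *Spink4* had 0.287, 0.1099 and 0.197 counts per *Muc2* count in the wild-type mice and 0.413, 0.458 and 0.395 in the double mutant mice. The double mutant mice were above all 3 wild-type mice, by 2.29-fold in the geometric mean (p = 0.1 in an exact permutation test, two-sided, which is the smallest that 3 against 3 can reach, and 0.5 adjusted over the 5 ratios). Without wild-type mouse 1 the difference was 2.86-fold, or 1.52 on the log2 scale. *Agr2* had 0.0703 and 0.0963 counts per *Muc2* count in wild-type mice 2 and 3 and 0.232, 0.220 and 0.175 in the double mutant mice, a difference of 1.34 on the log2 scale without wild-type mouse 1 (p = 0.2 in the same exact permutation test, which cannot go lower with 3 against 2, and 0.25 adjusted). In wild-type mouse 1 the ratio was 0.351 (95% Wilson interval 0.279 to 0.441, counting error only), the highest of the 6 libraries, so that over all libraries the groups overlapped (difference 0.64, exact permutation p = 0.4).

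*Fcgbp* had 5.30, 7.03 and 6.80 counts per *Muc2* count in the wild-type mice and 5.78, 3.81 and 4.47 in the double mutant mice. The groups overlapped (difference -0.45 on the log2 scale, exact permutation p = 0.2). They did not overlap without wild-type mouse 1 (difference -0.58, exact permutation p = 0.2, 0.25 adjusted). *Zg16* ran from 1.43 to 2.13 in wild-type and from 1.40 to 1.72 in double mutant mice, with overlap as well (difference -0.22, exact permutation p = 0.3). For *Tff3* the wild-type ratios of 1.33, 0.529 and 0.787 enclosed the double mutant ratios of 0.838 to 0.934 (exact permutation p = 0.7), which lay above those of wild-type mice 2 and 3. Of the counts on the 6 products, *Fcgbp* took 69.1% and 62.9% in wild-type mice 2 and 3, 51.0% in wild-type mouse 1 and 48.8% to 57.4% in the double mutant mice. *Agr2* and *Spink4* were small parts of it, with at most 2.82% and 5.87% in a double mutant mouse and 3.37% and 2.76% in wild-type mouse 1.

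**Figure D3:**
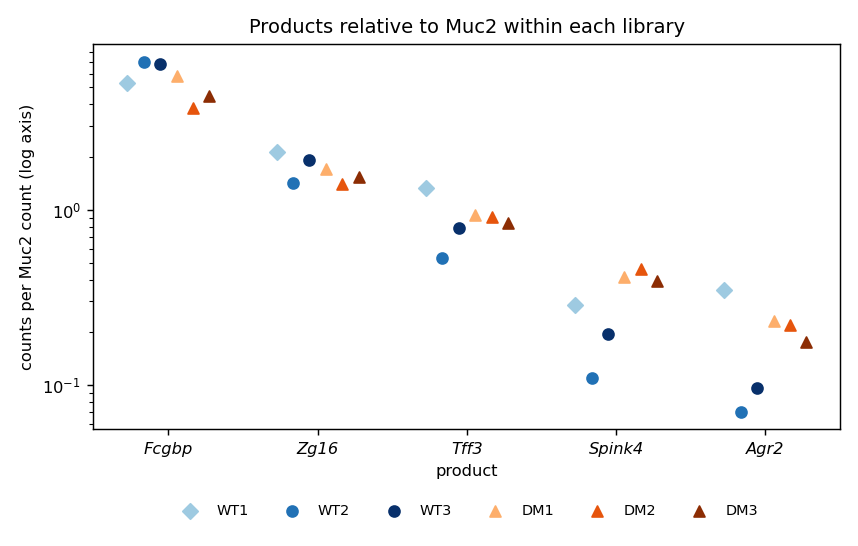
Counts of each product per count of *Muc2* within each library, on a log axis, with diamonds for wild-type mouse 1 (WT1), circles for wild-type mice 2 and 3 and triangles for the double mutant (DM) mice. The triangles lie above the circles for *Spink4*, *Agr2* and *Tff3*, and the diamond is the highest point for *Agr2*, *Tff3* and *Zg16*.

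Per kilobase of annotated exon, the products stood above the factors. In wild-type mice 2 and 3 the mean level was 2835 CPM per kilobase for *Zg16*, 1425 for *Tff3*, 712 for *Fcgbp*, 341 for *Spink4*, 153 for *Muc2* and 69.0 for *Agr2*. The factors followed with 6.90 for *Atoh1*, 6.37 for *Spdef* and 1.52 for *Gfi1*, *Atoh1* and *Spdef* overlapping between the 2 mice. In double mutant villi *Zg16* (1375 CPM per kilobase) and *Tff3* (1022) again led. *Spink4* (500) stood above *Fcgbp* (249), with no overlap between the 3 mice. *Agr2* (90.8) and *Muc2* (80.2) overlapped, and *Spdef* (4.27) stood above *Atoh1* (3.22). The level of *Muc2* depends on its exon length of 7041 bases in this annotation.

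To place the 9 genes among other genes of mucus production and of secretory fate, 4 lists were examined, of which 76 genes were tested. The secretory fate list held 22 of these, Notch ligands and factors of tuft cells among them, which are not genes of mucus production. Over all 6 libraries 11 of them rose and 12 fell by edgeR's test, with a median log2 fold change of -0.19 against 0.02 for all genes tested, of which 19.7% rose and 17.0% fell. Without wild-type mouse 1, 12 rose and 33 fell, with a median of -0.35 against 0.03, where 20.2% of all genes tested rose and 17.1% fell. Scaled by library size alone 20 rose and 25 fell there, and 16 rose and 8 fell over all 6 libraries. The split between rises and falls therefore depended on the scaling and on 1 library. The same shares of all genes, 19.7% and 17.0% over all libraries and 20.2% and 17.1% without wild-type mouse 1, are the background of each list that follows.

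Of 18 tested genes of mucin folding, granules and exocytosis, 13 shared the low values of wild-type mouse 1, where they were more than 4-fold below the lowest of the other 5 libraries. With all libraries 1 rose and 0 fell, and without wild-type mouse 1, 2 rose and 11 fell (background 20.2% and 17.1%), with a median log2 fold change of -0.75. *Fer1l6*, a member of the ferlin family, had 0.3749, 82.63 and 61.26 CPM in wild-type and 14.27, 10.11 and 13.91 CPM in double mutant mice. Its log2 fold change without wild-type mouse 1 was -2.50 (adjusted p = 1.76e-05, edgeR), against -1.91 (adjusted p = 0.383) with it. The calpain *Capn9* (-1.73, adjusted p = 7.62e-05) and *Rab27a*, a GTPase of granule exocytosis (-1.49, adjusted p = 0.000209), had the next largest falls without wild-type mouse 1. Neither was called with it (edgeR adjusted p = 0.449 and 0.275). *Nlrp6*, an inflammasome sensor, rose with all libraries (0.59, adjusted p = 0.00549) and without wild-type mouse 1 (0.66, adjusted p = 0.00264), and in wild-type mouse 1, with 331.7 CPM, it was not low. *Slc12a8*, a solute carrier, rose without wild-type mouse 1 (0.42, adjusted p = 0.0274) and was not called with it (adjusted p = 0.400). *Ern2*, the goblet cell form of the stress sensor IRE1, had 0.2083, 12.68 and 12.54 CPM in wild-type and 7.605, 7.745 and 9.493 CPM in double mutant mice. It fell without wild-type mouse 1 (-0.61, adjusted p = 0.0233, edgeR) and was not called with it (-0.02, adjusted p = 0.989).

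**Figure D4:**
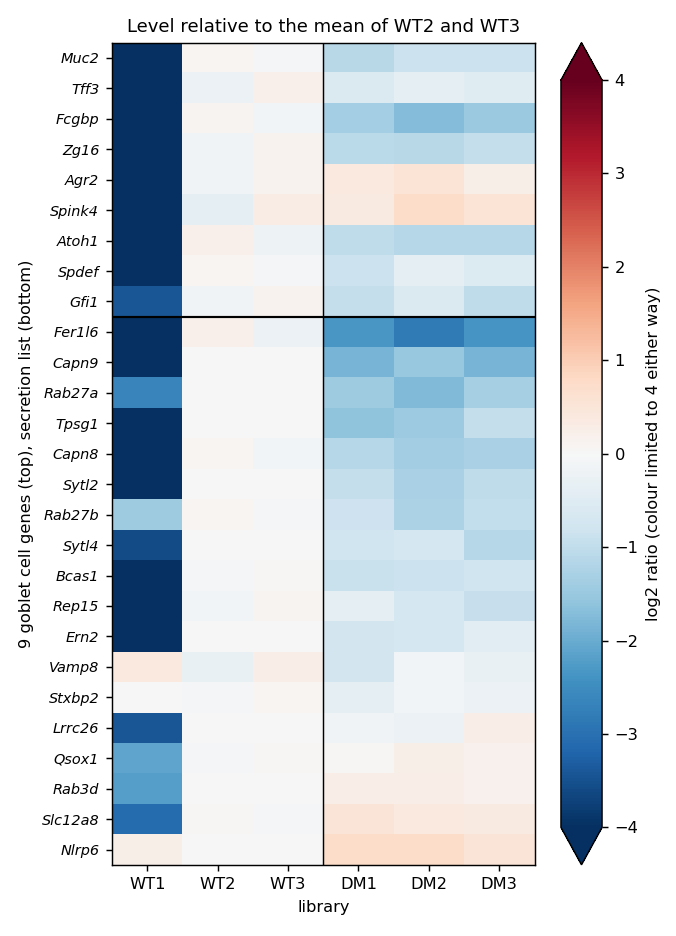
Level of the 9 goblet cell genes (top) and of the 18 tested genes of mucin folding and secretion (bottom, ordered by their double mutant mean) in each library, as the log2 ratio to the mean of wild-type mice 2 and 3, with colors limited to 4 in either direction. The column of wild-type mouse 1 (WT1) is dark blue for most genes, and *Fcgbp* and *Fer1l6* are the deepest blue of the double mutant (DM) columns in their blocks.

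Of 12 tested genes of other secreted products, 2 rose and 0 fell with all libraries (background 19.7% and 17.0%), and 3 rose and 5 fell without wild-type mouse 1 (20.2% and 17.1%). *Clca1*, a metalloprotease of mucus that the mm9 annotation still names *Clca3* (ENSMUSG00000028255), had 19.24, 4051 and 3810 CPM in wild-type and 447.6, 303.0 and 332.7 CPM in double mutant mice. The double mutant mice again lay between wild-type mouse 1 and the other wild-type mice, with a log2 fold change of -2.86 over all libraries (adjusted p = 0.266, edgeR) and a fall by 3.44 without wild-type mouse 1 (adjusted p = 1.74e-06). *Ang4*, an antimicrobial ribonuclease of Paneth and goblet cells, had 1.583, 370.7 and 532.6 CPM in wild-type and 11.45, 12.66 and 7.357 CPM in double mutant mice. Its log2 fold change without wild-type mouse 1 was -5.43 (adjusted p = 6.88e-06, edgeR), against -4.84 with it (adjusted p = 0.123). *Retnlb*, an antimicrobial product of goblet cells, fell without wild-type mouse 1 (-3.92, adjusted p = 0.000174) and was not called with it (adjusted p = 0.186). The falls of these 3 genes without wild-type mouse 1 were larger than that of any of the 9 goblet cell genes. *Dmbt1* (2.17, adjusted p = 0.0333) and *Lypd8* (1.49, adjusted p = 0.0180), whose products bind bacteria and are not limited to goblet cells, rose over all libraries. Both rises were also called without wild-type mouse 1. The chemokine *Ccl9* rose without wild-type mouse 1 (1.36, adjusted p = 0.00114, edgeR) and was not called with it (adjusted p = 0.0614).

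Of 24 tested genes of mucin glycosylation and sulfation, 5 rose and 6 fell over all libraries, near the background of 19.7% and 17.0%, and 4 rose and 10 fell without wild-type mouse 1 (20.2% and 17.1%). Many of these enzymes act in every epithelial cell, and 3 of the 24 were more than 4-fold below all other libraries in wild-type mouse 1. *Chst4*, a sulfotransferase of mucin glycans, had 4.457, 31.01 and 27.29 CPM in wild-type and 139.9, 186.9 and 173.2 CPM in double mutant mice (log2 fold change 3.00, SE 0.733, adjusted p = 0.0297, edgeR, all libraries). *Gcnt4*, which makes branched glycans, rose by 1.11 on the log2 scale without wild-type mouse 1 (adjusted p = 0.000518) and *Galnt7*, which adds the first sugars of O-glycans, by 0.47 over all libraries (adjusted p = 0.0347). Among the falls, the sialyltransferase *St6galnac6* went from 6.04 to 7.83 CPM in wild-type to at most 0.380 CPM in double mutant mice (-4.51, adjusted p = 0.000136). The sulfate transporter *Slc26a2* (-1.95, adjusted p = 0.000698) and the sialyltransferase *St3gal4* (-0.84, adjusted p = 0.00150) fell too, and all of these calls but that of *Galnt7* (adjusted p = 0.0720) held without wild-type mouse 1. *Galnt3* rose (0.54, adjusted p = 0.0157) and *Gcnt1* fell (-1.37, adjusted p = 0.0146) only in the fit without that mouse, and the change of these calls between the fits was not tested.

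Of 22 tested regulators of secretory fate, 3 rose and 6 fell over all libraries (background 19.7% and 17.0%), and 3 rose and 7 fell without wild-type mouse 1 (20.2% and 17.1%). *Hes1*, the Notch effector that represses *Atoh1*, had 7.706, 10.77 and 16.28 CPM in wild-type and 34.55, 40.12 and 31.28 CPM in double mutant mice (log2 fold change 1.61, SE 0.256, adjusted p = 0.00222, edgeR). The Notch ligands *Dll1* (-0.49, adjusted p = 0.0125) and *Dll4* (-0.72, adjusted p = 0.0384), which secretory precursors carry, fell. *Sox9*, a factor of crypt progenitors and Paneth cells, rose by 1.95 on the log2 scale (adjusted p = 0.00112), and *Xbp1*, a factor of secretory capacity, by 0.70 (adjusted p = 0.00343). *Klf4*, which is needed for goblet cell maturation in the colon and is also made by villus enterocytes, fell from 593.2, 581.9 and 616.1 CPM to 90.18, 103.0 and 117.2 CPM (-2.53, adjusted p = 1.56e-05). *Pou2f3*, the master factor of tuft cells, fell by 2.54 on the log2 scale (adjusted p = 0.00344). *Gfi1b*, also of tuft cells, fell from 0.833, 1.36 and 1.92 CPM to at most 0.141 CPM, the level of 3 counts (adjusted p = 0.00490). These edgeR values are from all 6 libraries, and each of these calls held without wild-type mouse 1. In wild-type mouse 1, *Klf4* lay between the values of the other wild-type mice, and *Hes1*, though the lowest of the 6, was 1.40-fold below the next library. *Foxa3*, in contrast, had 0.2083 CPM there, while wild-type mice 2 and 3 had 9.738 and 9.755 CPM and the double mutant mice 6.056 to 6.930 CPM.

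The genes whose pattern was nearest to that of the 6 products were ranked by the root mean square difference of centered log2 CPM over the 6 libraries. The 10 nearest of 13337 other genes were *Ern2*, *Bcas1*, *Rep15*, *Lyz1*, *Foxa3*, *Ccl6*, *Rasd2*, *Tpsg1*, *Fam174b* and *Capn8*, with differences of 0.228 to 0.489, against a median of 2.10 over all genes. Of the 9 goblet cell genes, *Tff3* lay nearest to the mean profile (0.143) and *Gfi1* farthest (1.08). The ranking is a description over 6 libraries of which 1, wild-type mouse 1, sets most of the range.

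Genes that were low in that library alone were counted over the whole table. Of 13346 genes tested, 318 (2.38%) were more than 4-fold below the lowest of the other 5 libraries in wild-type mouse 1, against 12 to 45 genes (0.0899% to 0.337%) for each of the other libraries. They held all 9 goblet cell genes, 9 of 12 other secreted products, 5 of 7 Paneth and 4 of 8 crypt stem cell markers, and 0 of 6 tuft, 0 of 12 enteroendocrine, 0 of 13 enterocyte and 0 of 8 T cell markers. This count sets no minimum level, so some of the 318 lie under the limit of 3 counts. The crypt marker *Gkn3* is 1 of them, with 0 CPM in wild-type mouse 1 and 0.0544 CPM in wild-type mouse 2. Summed Paneth markers were 4.50 CPM in wild-type mouse 1, 246 and 506 CPM in wild-type mice 2 and 3 and 116 to 184 CPM in the double mutant mice. Summed crypt stem cell markers were 81.4, 182 and 191 CPM in wild-type and 300.5 to 383 CPM in double mutant mice. Tuft markers, at 199, 152 and 220.5 CPM in wild-type and 15.1 to 17.1 CPM in double mutant mice, were not low in wild-type mouse 1. Enteroendocrine markers summed to 268, 317 and 398 CPM in wild-type and 111 to 124 CPM in double mutant mice. By edgeR's test 0 of 7 Paneth markers were called over all libraries (0 at an unadjusted p under 0.05 and 0 by DESeq2 or limma-voom), and 1 of 11 rose and 5 fell without wild-type mouse 1 (background 20.2% and 17.1%). The filter on low counts was run anew without that mouse, which raised the markers tested from 7 to 11. A marker could then pass it through wild-type mice 2 and 3 alone, so these falls are a description. Of 8 crypt stem cell markers, 3 rose over all libraries and 5 without wild-type mouse 1 (background 19.7% and 20.2%). Of 24 proliferation genes, a list chosen after the values were seen, 6 were among the 318, and wild-type mouse 1 was the lowest library for 21. Their sum was 100.8 CPM in wild-type mouse 1, 164.9 and 168.1 CPM in wild-type mice 2 and 3 and 361 to 426.8 CPM in the double mutant mice. The part of crypt content or proliferation in the goblet cell values of any library was not tested.

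**Figure D5:**
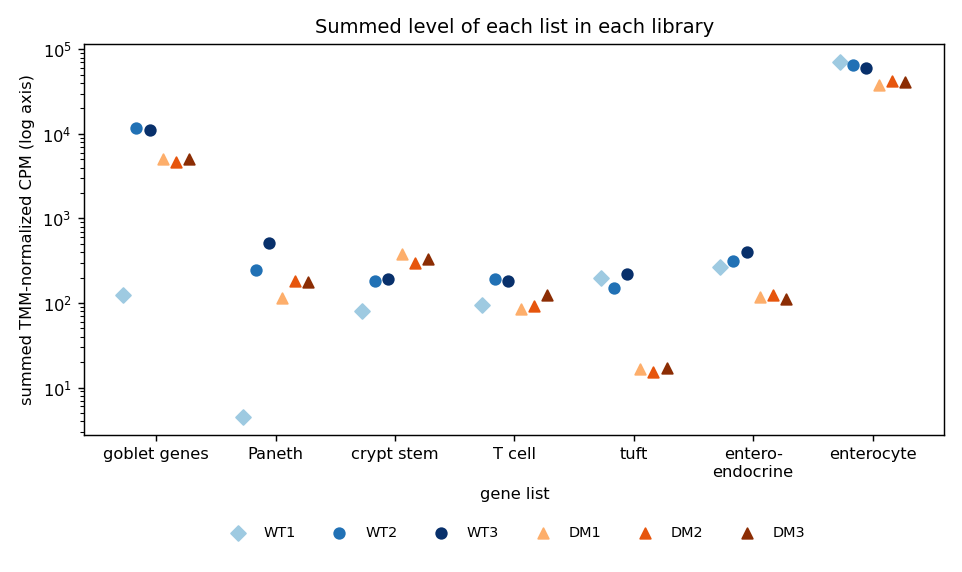
Summed TMM-normalized CPM of the goblet cell genes and of marker lists of 6 other cell types in each library, on a log axis, with diamonds for wild-type mouse 1 (WT1), circles for wild-type mice 2 and 3 and triangles for the double mutant (DM) mice. Wild-type mouse 1 is far below the other libraries for the goblet and Paneth lists, and lies with the other wild-type mice for the tuft, enteroendocrine and enterocyte lists.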

How the data were processed

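Per the labels' processing notes and the paper's methods, the authors cleaned paired reads of polyadenylated RNA, mapped them with HISAT2 (mm9) and ran featureCounts. The deposited values are raw counts per gene, not normalized, in a column for each mouse. The strand setting and the handling of reads that match several genes are not given in the sources used here. Of 20073 Ensembl identifiers, 20032 matched GENCODE's mm9 annotation, the source of symbols, positions and exon lengths. Symbols of the lists that now belong to another gene were matched through RefSeq by chromosome and span (*Clca1*). The other 336 features are numbered transcripts outside the annotation, with 0.214% to 0.27% of the counts.

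Groups and replicate numbers are those of the labels, and nothing was pooled. Each library came from a separate mouse. Counts were analyzed with R 4.3.3 and edgeR 4.0.16: filterByExpr with the group, TMM, robust glmQLFit and glmQLFTest, with Benjamini-Hochberg adjustment over all genes tested. A gene was called at an adjusted p under 0.05. Normalized counts are CPM scaled by TMM factors. The SE of an edgeR log2 fold change was taken from its F statistic (change over root F). Ratios to *Muc2* were tested by exact permutation over libraries (scipy 1.17.1). The 9 genes and the gene lists were chosen with earlier results of these data known. Genes named from the lists are the 3 with the largest called rise and fall per list in either fit, the genes nearest to the product profile, and a few named after their values were seen (*Dll1*, *Dll4*). A list of 24 proliferation genes was added after the values were seen. Genes of the lists without a single match in the table (*Tff1*, *Tff2*, *Muc5ac*, *St6galnac1*, *C1galt1c1*, *Chst5*, *Tgm3*, *Dcn*, *Lum*, *Prss2* and *Cpa1*) were not analysed here. The scripts were tested on simulated data. Alternatives were DESeq2 1.42.0, limma-voom (limma 3.58.1), RLE factors, library size alone, other filters on low counts (none, or at least 10 counts in 3 libraries), sex or the replicate number as a term, a log2 fold change of at least 2 and each library left out.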

Additional observations from a re-analysis of the deposited data

How the results depend on the processing

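Over all 6 libraries the count of goblet cell genes called was 0 in every other fit run, the replicate block included, and 0 to 7 with a library left out, the 7 being without wild-type mouse 1. Their directions were not stable. With limma-voom the log2 fold change turned positive for *Muc2* (1.24), *Fcgbp* (0.76), *Zg16* (1.01), *Atoh1* (1.39), *Spdef* (1.14) and *Gfi1* (0.42). With the replicate block it turned for *Muc2* (0.60), *Zg16* (0.41), *Atoh1* (0.20), *Spdef* (0.60) and *Gfi1* (0.10), and with sex as a covariate for *Muc2* (0.59), *Zg16* (0.41), *Atoh1* (0.15), *Spdef* (0.57) and *Gfi1* (0.0853). Library size alone turned *Spdef* (0.16), moved the median of all genes from 0.02 to 0.22 and took the calls over all genes from 2632 higher and 2273 lower to 3732 and 1425 (without wild-type mouse 1, from 2783 and 2361 to 3819 and 1624). With a library left out, the range was -0.93 to 0.13 for *Muc2*, -0.48 to 0.70 for *Tff3*, -1.04 to 0.074 for *Zg16*, -1.10 to 0.11 for *Atoh1*, -0.58 to 0.44 for *Spdef* and -0.83 to 0.19 for *Gfi1*. It was -1.52 to -0.42 for *Fcgbp*, 0.40 to 1.48 for *Agr2* and 0.55 to 1.89 for *Spink4*, which kept their direction. The cause was not tested. Without wild-type mouse 1, 4 of the 7 falls were called with sex as a covariate, and with the replicate block the same number of falls (4) and *Spink4* higher (edgeR adjusted p = 0.00949), while *Gfi1* (0.0788), *Spdef* (0.114) and *Tff3* (0.0577) were not called, which makes 5 calls in all. There were 0 at a log2 fold change of at least 2 and 4 to 7 with a further library left out; a group left with 1 library was assumed to vary like the other. No direction changed in these fits. Genes called in the other lists went from 23 to 6 at that fold threshold and ran from 17 to 45 with a library left out, and without wild-type mouse 1 from 45 to 10 at that threshold and from 33 to 46. The study also lists these libraries under other replicate numbers than the labels, and the labels' numbers were used. Libraries with the same number share their sex, mouse 1 of each group being the male, but nothing in the labels says that they share a litter or a day. They had correlations of 0.02, -0.11 and 0.01 between their deviations from the group means, and the block took the calls over all genes from 4905 to 3834. Adding 0.5 to the raw counts changed no ratio beyond the spread between mice.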

Other observations

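T cell markers, which report the intraepithelial lymphocytes of the villus, summed to 94.8, 195 and 184 CPM in the wild-type mice and 84.2, 91.7 and 125 CPM in the double mutant mice. Of 8 tested markers, 2 fell over all libraries and 7 fell without wild-type mouse 1 (edgeR, adjusted p under 0.05), where 17.0% and 17.1% of all genes tested fell. Like the goblet cell genes, their wild-type level in mouse 1 was under that of mice 2 and 3, but by a far smaller factor.

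By Pearson correlation, chosen as the other measure of likeness, the gene nearest to the product profile was *Eif4e3*, with r of 0.999 over 6 libraries and levels of 14.4 CPM in wild-type mouse 1 and 26.5 to 28.1 CPM in the other libraries. The lists of 15 genes by the 2 measures shared 6 genes.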
